A study of Mus musculus with 19 samples.

Results

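Potassium channel genes were described in dorsal hippocampus RNA as every protein-coding mouse gene whose symbol starts with Kcn, with 1 Kcnj gene left out. The choice used symbols and gene type and no measured value. It gave 93 genes in 21 subfamilies out of 51789 rows in the count table. Each of the 93 genes had counts in at least 1 library.

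The data were RNA-seq counts from 19 libraries, made after removal of ribosomal RNA, of the dorsal hippocampus of male C57BL/6J mice aged 2 to 4 months. Experiment 1 held 5 mice with the DN transgene (genotype tTA+/DN+; the series calls these mice Nr4ADN, after the Nr4A family of nuclear receptors) and 6 control littermates, all 11 carrying the tetracycline transactivator tTA and all exposed to SOR. Experiment 2 held 8 control mice, 4 exposed to SOR, of which 3 were tTA+ and 1 was tTA-, and 4 kept in the homecage, of which 2 were tTA+ and 2 were tTA-. The promoters that drive tTA and DN, and the cells they act in, are not given in the sources used here.

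Potassium channels let potassium leave or enter the cell and so set the resting potential, the shape of the action potential and the firing rate of neurons. Voltage-gated channels are built of several pore subunits (Kcna to Kcnd, Kcnq, Kcnh), to which silent subunits that form no channel alone (Kcnf, Kcng, Kcns, Kcnv) and auxiliary proteins (Kcnab, Kcnip, Kcne) can bind. Inward rectifiers (Kcnj), tandem-pore-domain leak channels (Kcnk) and channels opened by calcium or sodium (Kcnma, Kcnn, Kcnt) complete the family. In hippocampal pyramidal cells, Kcnd channels and their Kcnip partners carry the transient A-type current of dendrites, Kcnq channels the M current, and Kcnj3, Kcnj6 and Kcnj9 the G protein-gated current of inhibitory receptors.

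Library totals ran from 22258159 counts in SOR replicate 3 of experiment 2 to 66991576 in homecage replicate 3. Potassium channel genes took 0.452% to 0.537% of the counts of a library, and 87 to 92 of them were detected in each. Defining markers of CA1, CA3 and dentate granule cells were present, and no marker of any list examined was at 0 in every library. Markers of choroid plexus, a tissue beside the hippocampus, summed to above 1000 TPM (transcript counts scaled for gene length and library size) in 5 libraries: DN replicate 2, control replicates 1 and 2 of experiment 1, and SOR replicates 1 and 2 of experiment 2. In bulk tissue, fewer cells of a type and less RNA per cell cannot be told apart. Levels below are TPM, which corrects for gene length, while log2 fold changes come from edgeR on the counts.

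In the 4 homecage mice, 74 of the 93 genes averaged above 1 TPM, 52 above 10 TPM, 13 between 0.1 and 1 TPM, and 6 below 0.1 TPM. The median level was 11.4 TPM over the potassium channel genes and 5.90 TPM over all protein-coding genes of the table. A level above 1 TPM was reached by 79.6% of the potassium channel genes and by 64.2% of all protein-coding genes. The summed level was 2959 ± 305 TPM (SD, n = 4), and the 10 highest genes held 51.1% of it.

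**Figure D1:**
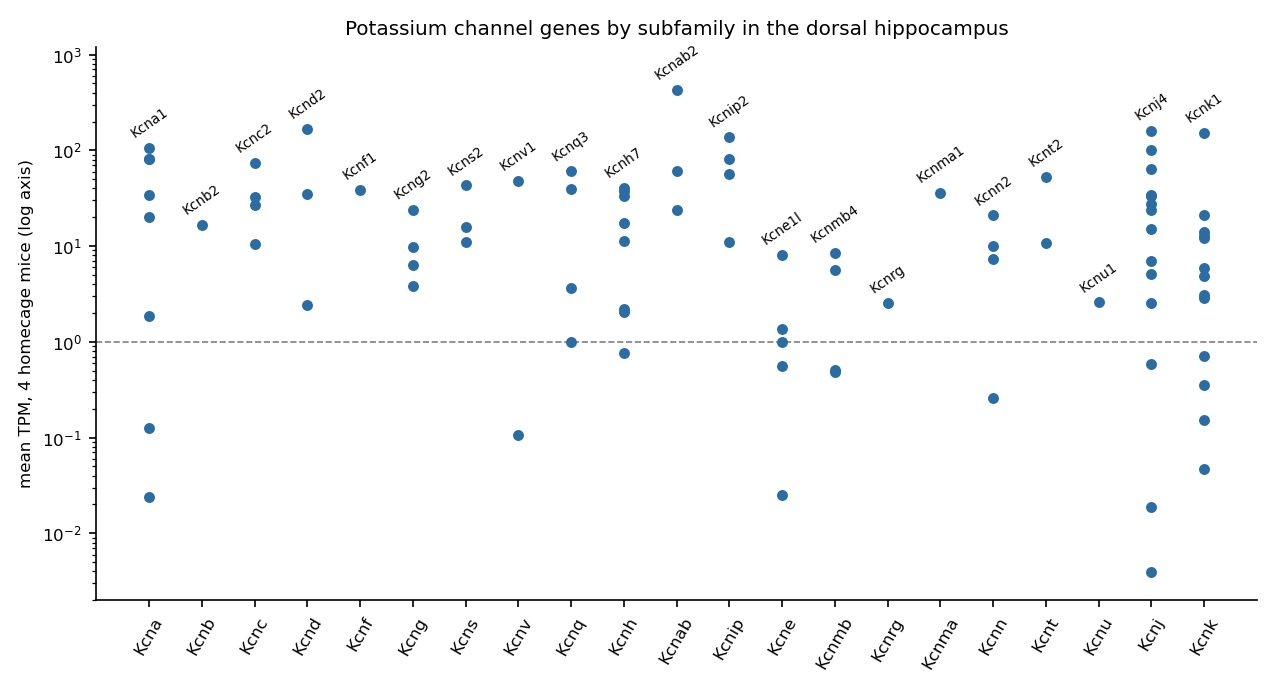
Mean level in the 4 homecage mice (TPM, log scale) of potassium channel genes, 1 column per subfamily and 1 point per gene drawn, the highest of each column named. Kcnab2 lies highest at 423 TPM, most subfamilies hold genes above 10 TPM, and Kcnk16, at 0 TPM, cannot be drawn on the log axis.

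Auxiliary subunits held 27.9% of the summed level over 17 genes. This was the largest share of any role only because Kcnq and Kcnh were counted apart from the other voltage-gated pore subunits. The Kcna to Kcnd pore subunits held 24.9% and Kcnq and Kcnh 11.9%, which pooled exceed the auxiliary share. Of the 824 TPM of the auxiliary subunits, Kcnab2 alone averaged 423 ± 42.3 TPM (SD, n = 4). Kcnab2 (ENSMUSG00000028931.11, chromosome 4, 152390742-152477871, minus strand, GRCm38) encodes a cytoplasmic beta subunit of Kcna channels. Its lowest homecage library, at 383 TPM, lay above the highest homecage library of Kcnd2, the next gene, at 204 TPM. It was the only one of the 92 steps down the ranking at which the ranges of neighbouring genes over the 4 mice did not overlap. Overlap of ranges leaves the order within each mouse unread, which was not examined step by step. Kcnip2, for instance, was above Kcna1 in all 4 homecage mice though their ranges overlapped. The second beta subunit, Kcnab1, averaged 61.4 TPM.

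Calcium-binding Kcnip proteins, the partners of Kcnd channels, followed with 136.8 TPM for Kcnip2, 82.0 TPM for Kcnip3 and 56.7 TPM for Kcnip4. Small single-pass subunits were low: the highest Kcne gene, Kcne1l, averaged 8.03 TPM. Kcnmb4, the neuronal beta subunit of the large-conductance calcium-activated channel, averaged 8.51 TPM and was the highest Kcnmb gene. Kcnrg averaged 2.54 TPM.

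The 17 voltage-gated pore subunits of the Kcna to Kcnd subfamilies held 24.9% of the summed level. Kcnd2, the A-type pore subunit, was the highest of these at 167 ± 25.3 TPM (SD, n = 4). The axonal subunits Kcna1 and Kcna2 averaged 106 and 80.3 TPM, and Kcna4, an inactivating subunit, averaged 81.0 TPM. The fast-spiking subunits Kcnc2 and Kcnc1 averaged 73.5 and 26.7 TPM.

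Silent subunits held 6.79% of the summed level, with a different gene leading each subfamily. Kcnv1 averaged 48.3 TPM, Kcns2 43.0 TPM, Kcnf1 38.3 TPM and Kcng2 24.1 TPM. Kcng1 was the lowest Kcng gene at 3.86 TPM. Kcnq3, a subunit of the M current, averaged 60.7 TPM. Kcnh7, of the ether-a-go-go family, had the highest Kcnh mean at 40.4 TPM. Its range over the homecage mice overlapped that of Kcnh3, which averaged 38.0 TPM. Kcnq and Kcnh together held 11.9%.

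Inward rectifiers held 15.96% of the summed level. Kcnj4, a strong rectifier, led them at 160 ± 15.2 TPM (SD, n = 4). The G protein-gated subunits Kcnj3, Kcnj9 and Kcnj6 averaged 99.8, 63.5 and 27.4 TPM. Kcnj10, the main astrocytic inward rectifier, averaged 33.5 TPM, and the pores of ATP-sensitive channels were at 23.8 TPM for Kcnj11 and 5.17 TPM for Kcnj8.

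Tandem-pore-domain channels held 7.84% of the summed level, and Kcnk1 alone averaged 152 ± 12.9 TPM (SD, n = 4). Kcnk2, a stretch- and lipid-sensitive leak channel, averaged 21.3 TPM. Calcium- and sodium-activated channels, with Kcnu1 grouped beside them, held 4.74%. Kcnt2 averaged 52.2 TPM, Kcnma1 35.9 TPM, Kcnn2, a small-conductance channel of the afterhyperpolarization, 20.9 TPM, Kcnt1 10.8 TPM, and the sperm-type channel Kcnu1 2.58 TPM. Among genes above 1 TPM the median coefficient of variation over the 4 mice was 13.9%.

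The comparison of DN with control mice addressed whether the transgene altered potassium channel expression after SOR. None of the 81 potassium channel genes tested in experiment 1 passed edgeR's quasi-likelihood test at an adjusted p under 0.05, a call that 0.00893% of all 22391 genes reached. DESeq2 and limma-voom also called 0 of them. At an unadjusted p under 0.05 there were 2 of 81 genes, 2.47%, against 3.83% of all genes. Leaving out 1 library gave 1 (without DN replicate 1) to 5 (without DN replicate 5) such genes, and leaving out the choroid plexus-rich libraries gave 6. Log2 fold changes were positive for 42 genes and negative for 39, with a median of 0.00, which is also the median of all genes, 49.98% of them negative; with upper quartile scaling 33 were negative, and so were 41.6% of all genes. With 1 library left out, positive values numbered 34 (without control replicate 1) to 49 (without control replicate 5), and the median ran from -0.01 to 0.02. No potassium channel gene had DN and control mice without overlap, against 0.304% of all genes.

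Among the 52 genes above 10 TPM in homecage mice, the median standard error of the DN log2 fold change was 0.0542 and the largest change in size was -0.15, in Kcnk12. Kcnj11, the pore of the neuronal ATP-sensitive channel, lay at 23.2, 26.7, 27.4, 26.1 and 29.3 TPM in the 5 DN mice. In the 6 controls it ranged from 24.9 to 31.6 TPM with a median of 29.6 TPM. The groups overlapped over most of their range, and the log2 fold change was -0.14 ± 0.0613 (SE; unadjusted p = 0.0305, edgeR adjusted p = 0.999).

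Kcne4, an inhibitory single-pass subunit, lay at 1.30, 1.36, 0.897, 1.55 and 1.63 TPM in the DN mice. In controls it ranged from 0.738 to 1.14 TPM with a median of 0.999 TPM. DN replicate 3 lay inside the control range and the other 4 above it, on 15 to 43 counts a library. The log2 fold change was 0.44 ± 0.199 (SE; unadjusted p = 0.0373, edgeR adjusted p = 0.999). Kcne2 ranged from 0 to 48.5 TPM among the 11 mice, and is described with choroid plexus below.

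The Nr4A receptors bind the octamer AAAGGTCA, known as the NBRE, so RefSeq promoter windows (GRCm38.p6, 250 bases before to 50 after a start) were searched for it on both strands. The table held 93 windows of 68 of the potassium channel genes. The NBRE was present in 1 of these 93 windows, that of Kcnh1, and in 1.51% of all 32851 windows. The cyclic AMP response element TGACGTCA, which shares the letters TGAC with the NBRE's other strand, was in 0 of the 93 windows and in 1.79% of all. The upstream bases of the Kcnh1 window, chr1:192190527-192190766 on the plus strand, are shown because they hold the only NBRE, in capitals, which reads on the minus strand from 223 bases before the start.
Kcnh1: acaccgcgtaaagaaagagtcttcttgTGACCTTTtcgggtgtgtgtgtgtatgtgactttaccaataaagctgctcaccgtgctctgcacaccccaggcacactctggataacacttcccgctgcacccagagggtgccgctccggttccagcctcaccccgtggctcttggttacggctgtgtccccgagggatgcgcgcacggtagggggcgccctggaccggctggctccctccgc

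Kcnh1, an ether-a-go-go channel, lay at 35.1, 39.0, 38.2, 39.0 and 35.2 TPM in the DN mice and ranged from 32.2 to 40.0 TPM in controls, with a median of 38.4 TPM. The DN values lay inside the control range. The DN log2 fold change was -0.03 ± 0.0375 (SE; edgeR adjusted p = 0.999). A match of letters is a description of the window and not a bound site.

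**Figure D2:**
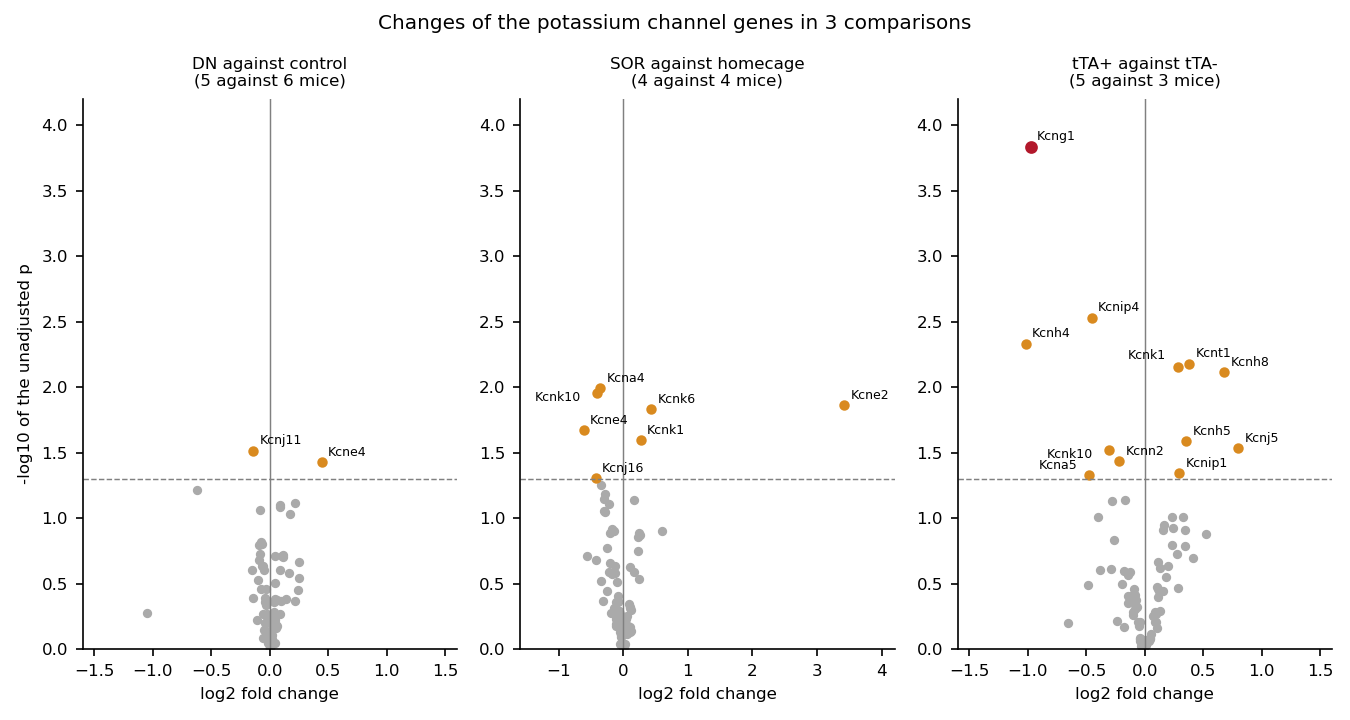
Log2 fold change (x axis) against -log10 of the unadjusted edgeR p (y axis) for potassium channel genes tested, 1 point per gene drawn and 1 panel per comparison with its own x range; the dashed line marks an unadjusted p of 0.05, and genes above it are named. The DN panel has 2 genes above the line, the SOR panel 7 and the tTA panel 12, of which Kcng1 is the only gene with an adjusted p under 0.05.

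The comparison of SOR with homecage control mice addressed the response to the exposure. None of the 83 potassium channel genes tested passed edgeR's adjusted threshold, which 0.0897% of all 22305 genes passed, all of them higher. DESeq2 and limma-voom called 0 potassium channel genes as well. At an unadjusted p under 0.05 there were 7 of 83 genes, 8.43%, against 7.60% of all genes. Of the 7, 3 were higher, against 3.67% of all genes, and 4 lower, against 3.93%. Leaving out 1 library gave 5 (without homecage replicate 1 or 4) to 10 (without SOR replicate 3) such genes. There were 0 in tTA+ mice alone, 11 without the choroid plexus-rich libraries, 12 with the replicate block and 14 with all 19 libraries in 1 fit. Groups did not overlap, on the scaled log2 CPM (counts scaled for library size) used for this throughout, for 4 of 83 genes, 4.82%, against 5.56% of all genes. Kcnk6 was the 1 higher gene (2.71% of all genes), and Kcnd1, Kcne4 and Kcnk10 were the 3 lower (2.85% of all genes).

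Negative log2 fold changes were more frequent than positive ones, 53 against 30, with a median of -0.06 beside 0.01 for all genes. Among all genes 51.5% were positive. With upper quartile scaling, which moved the median of all genes to -0.03, 59 of 83 were negative beside 57.2% of all genes. Without SOR replicate 3, the shallowest library, 62 of 84 were negative beside 49.8% of all genes, and without homecage replicate 1 or SOR replicate 4 it was 50 of 84 or 50 of 83. In tTA+ mice alone 49 of 85 were negative with a median of -0.02, beside 49.3% of all genes, and without the choroid plexus-rich libraries 49 of 83, beside 51.8%. The median was -0.03 without homecage replicate 2.

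By role, 9 of 13 Kcnq and Kcnh genes had negative SOR log2 fold changes, as did 6 of 9 silent subunits. Negative values were also held by 8 of 16 auxiliary subunits, 7 of 12 inward rectifiers and 4 of 8 calcium- and sodium-activated channels with Kcnu1. Of the 15 voltage-gated pore subunits of the Kcna to Kcnd subfamilies tested, 14 were negative, beside 48.5% of all genes. Their median was -0.09, and Kcnc4 alone was positive at 0.05. None passed the adjusted threshold and 1, Kcna4, had an unadjusted p under 0.05. The other fits and scalings run gave 12 to 16 negative members out of 15 to 17 tested. In tTA+ mice alone, 3 SOR against 2 homecage, 12 of 15 were negative with a median of -0.03. The median was -0.06 without homecage replicate 2, -0.15 without SOR replicate 2 and -0.19 without the choroid plexus-rich libraries, where the SOR mice left were all tTA+. Beside these, 7 of 8 oligodendrocyte markers were positive with a median of 0.14 (2 at an unadjusted p under 0.05), and 6 of 10 dentate granule markers were negative with a median of -0.27 (0 at that p); their part in the result was not tested.

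**Figure D3:**
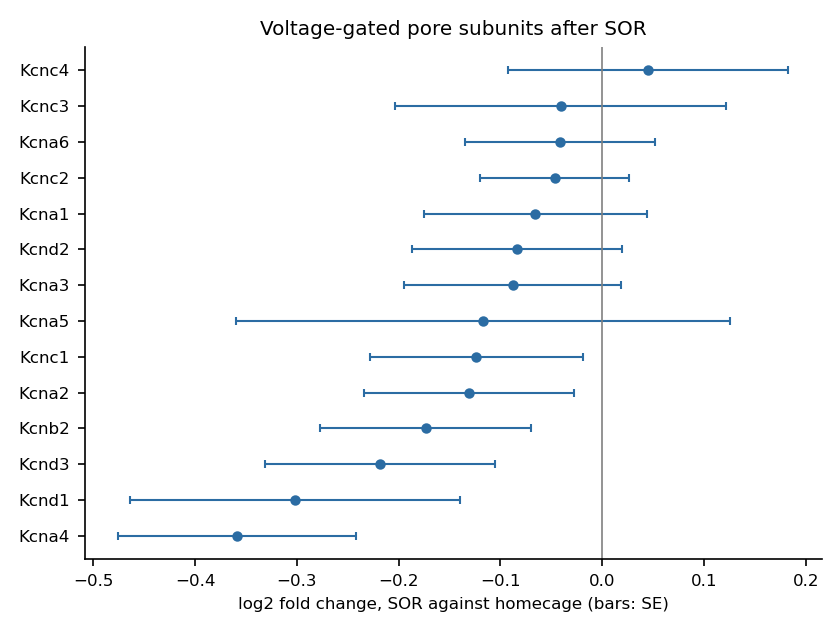
Log2 fold change between SOR and homecage mice (x axis, points with bars of 1 standard error) for voltage-gated pore subunits of the Kcna to Kcnd subfamilies (rows). Points run from -0.36 for Kcna4 to 0.05 for Kcnc4, and Kcnc4 alone lies above 0.

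Kcna4 (ENSMUSG00000042604.5, chromosome 2, 107290639-107298502, plus strand) lay at 83.9, 103.7, 66.6 and 69.9 TPM in homecage replicates 1 to 4. In SOR replicates 1 to 4 it lay at 50.8, 73.9, 43.8 and 58.0 TPM. SOR replicate 2 was above 2 homecage mice, so the groups overlapped, and the log2 fold change was -0.36 ± 0.117 (SE; unadjusted p = 0.0102, edgeR adjusted p = 0.604). In tTA+ mice alone it was -0.13 (edgeR adjusted p = 0.998).

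Kcnk10, a relative of Kcnk2 in the stretch-sensitive group, lay at 13.7, 15.1, 9.80 and 9.85 TPM in homecage mice. In SOR mice it lay at 8.29, 8.20, 7.59 and 8.12 TPM. All 4 SOR mice were below all 4 homecage mice, and the 2 highest homecage values were those of the tTA- mice. The log2 fold change was -0.41 ± 0.135 (SE; unadjusted p = 0.0111, edgeR adjusted p = 0.608), and -0.18 in tTA+ mice alone.

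Of the 10 tandem-pore-domain genes tested, 5 were positive and 5 negative, with a median of 0.03. Kcnk6 lay at 2.51, 3.51, 2.80 and 3.45 TPM in homecage mice and at 3.35, 4.47, 3.53 and 3.49 TPM in SOR mice, a log2 fold change of 0.43 ± 0.151 (SE; edgeR adjusted p = 0.621). Kcnk1 lay at 137, 146, 157 and 167 TPM in homecage mice and at 139.9, 191, 155 and 171 TPM in SOR mice, a log2 fold change of 0.27 ± 0.106 (SE; edgeR adjusted p = 0.621). In TPM both genes overlapped between the groups, and SOR replicate 2 was the highest library of experiment 2 for both. On scaled CPM the highest was SOR replicate 3 for both.

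Kcnj16, which pairs with the astrocytic Kcnj10, lay at 14.0, 14.0, 16.8 and 15.03 TPM in homecage mice and at 8.44, 9.89, 6.90 and 14.6 TPM in SOR mice. Only SOR replicate 4 reached the homecage range, and the log2 fold change was -0.42 ± 0.193 (SE; edgeR adjusted p = 0.656). Kcne4 lay at 1.52, 1.28, 1.11 and 1.52 TPM in homecage mice and at 0.808, 0.818, 0.810 and 0.726 TPM in SOR mice. The groups did not overlap on counts of 16 to 56 a library, and the log2 fold change was -0.61 ± 0.230 (SE; edgeR adjusted p = 0.621).

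Kcne2, a single-pass subunit with known high expression in choroid plexus epithelium, differed widely between libraries. It lay at 0.873, 2.09, 0.625 and 0.358 TPM in homecage mice and at 8.93, 30.1, 0.304 and 0.351 TPM in SOR mice. SOR replicates 1 and 2 were high, and in TPM replicates 3 and 4 were below all homecage mice. On scaled CPM these replicates, at 0.188 and 0.192, were above homecage replicate 4 at 0.179. The log2 fold change was 3.42 ± 1.15 (SE; unadjusted p = 0.0137, edgeR adjusted p = 0.615).

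SOR replicates 1 and 2 were also those rich in choroid plexus. The list of 9 choroid plexus markers, with Kcne2 among them, had 9 of 9 positive in SOR mice, 5 with an unadjusted p under 0.05 and 0 called by edgeR, and the summed level of the 8 other markers ran from 29.0 to 6736 TPM in SOR mice and from 86.4 to 472 TPM in homecage mice. Without the choroid plexus-rich libraries, an alternative chosen after the data were seen, Kcne2 turned to -1.23 (edgeR adjusted p = 0.427). SOR replicates 3 and 4, left in that fit, were tTA+ and held 4 and 9 Kcne2 counts. The homecage mice, with 8 to 39 counts, were of both genotypes. In experiment 1, Kcne2 was at 24.9 TPM in DN replicate 2 and at 48.5 and 19.2 TPM in control replicates 1 and 2, the 3 choroid plexus-rich libraries, and at 0 to 1.71 TPM in the other 8.

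**Figure D4:**
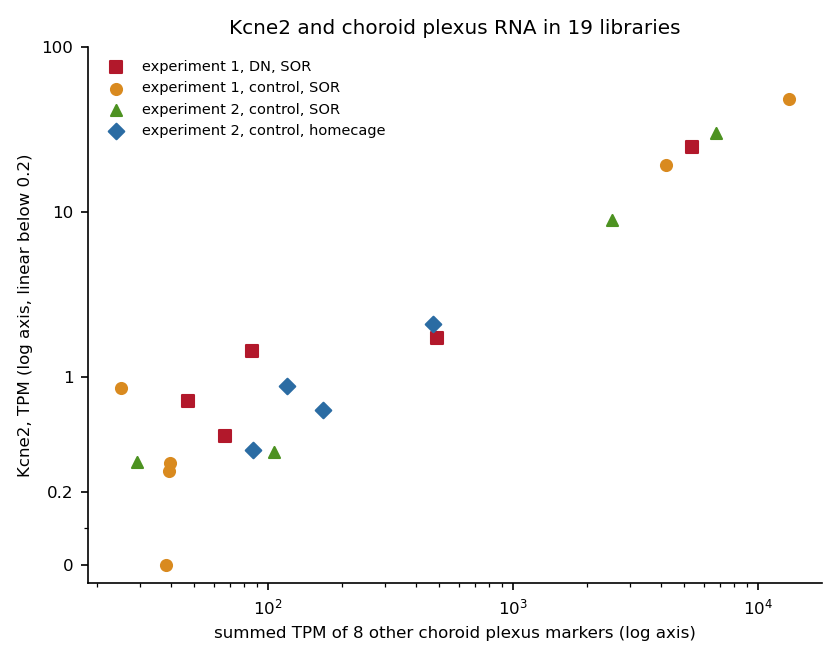
Kcne2 level against the summed level of the 8 other choroid plexus markers (TPM, log axes, with the Kcne2 axis linear below 0.2 TPM), 1 point per library, with colour and shape for the group. The 5 choroid plexus-rich libraries hold the 5 highest Kcne2 values, from 8.93 to 48.5 TPM, and the other libraries lie at or below 2.09 TPM.

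The comparison of tTA+ with tTA- control mice used the same 8 libraries of experiment 2, with exposure in the model, and addressed the effect of carrying the transactivator. The tTA and SOR comparisons therefore share their mice. Of 84 potassium channel genes tested, 1 passed edgeR's adjusted threshold, Kcng1, or 1.19%, against 0.358% of all 22904 genes (0.249% lower and 0.109% higher). At an unadjusted p under 0.05 there were 12 of 84, 14.3%, against 5.71% of all genes. These were 6 higher genes, against 2.27% of all genes, and 6 lower, against 3.44%. Leaving out 1 library gave 7 (without homecage replicate 4) to 18 (without SOR replicate 3) such genes. Positive values numbered 40 and negative 44, with a median of -0.02 beside 0.01 for all genes, 53.2% of them positive. Without homecage replicate 2 it was 47 positive and 38 negative with a median of 0.02, and without homecage replicate 3 it was 44 and 40 with a median of 0.01; DESeq2 gave a median of 0.01.

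Kcng1, a silent subunit that modifies Kcnb channels, fell in tTA+ mice. The gene (ENSMUSG00000074575.4) lies on chromosome 2 at 168260117-168281736, minus strand, with 7 annotated exons and no exon base shared with another gene. In the 3 tTA- mice it lay at 4.92, 5.85 and 3.60 TPM (homecage replicates 1 and 2 and SOR replicate 1). In the 5 tTA+ mice it lay at 2.46, 2.19, 2.93, 1.79 and 1.79 TPM (homecage replicates 3 and 4 and SOR replicates 2 to 4).

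All tTA+ values were below all tTA- values, with means of 2.23 ± 0.482 TPM (SD, n = 5) and 4.79 ± 1.13 TPM (SD, n = 3), on 60 to 279 counts a library. The log2 fold change was -0.97 ± 0.167 (SE; unadjusted p = 1.46e-04, edgeR adjusted p = 0.0434). The call was held in 2 of 8 fits that left out 1 library and lost in 6, without homecage replicate 1, 2, 3 or 4 or SOR replicate 1 or 4, where the log2 fold change stayed between -1.11 and -0.91 and the adjusted p ran from 0.104 to 0.313. In the 11 mice of experiment 1, all tTA+, Kcng1 ranged from 2.37 to 3.98 TPM, so its highest value there was above the lowest tTA- mouse. Without the choroid plexus-rich libraries the log2 fold change was -1.12 and the call was lost (edgeR adjusted p = 0.208). That fit kept SOR replicates 3 and 4, which were tTA+. It therefore estimated tTA within the homecage mice alone, as did the fit without SOR replicate 1.

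**Figure D5:**
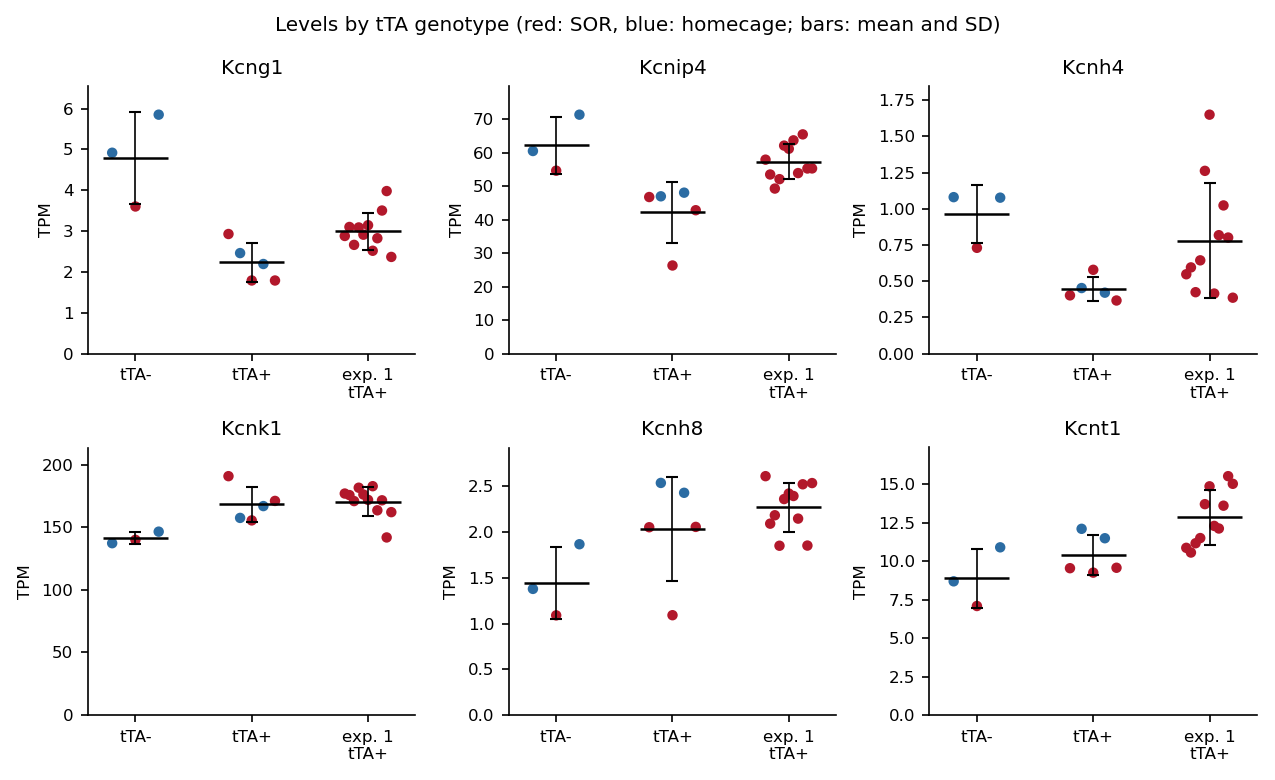
Level (TPM, y axis) of 6 potassium channel genes, 1 point per library, in the tTA- and tTA+ mice of experiment 2 and in all mice of experiment 1 (tTA+), with SOR mice in red, homecage mice in blue, and the mean and SD of each group as bars. Within experiment 2, Kcng1, Kcnip4 and Kcnh4 are lower and Kcnk1 is higher in every tTA+ mouse than in any tTA- mouse, while Kcnh8 and Kcnt1 overlap.

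The other low values in tTA+ mice did not pass the adjusted threshold. Kcnip4 (ENSMUSG00000029088.16), a partner of Kcnd channels, lay at 60.5, 71.3 and 54.6 TPM in tTA- mice and at 46.9, 48.0, 46.7, 26.3 and 42.8 TPM in tTA+ mice. The groups did not overlap, SOR replicate 3 was lowest, and the log2 fold change was -0.45 ± 0.117 (SE; edgeR adjusted p = 0.268). In experiment 1, where all mice were tTA+, Kcnip4 ranged from 49.3 to 65.4 TPM, which overlaps the range of the tTA- mice.

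Kcnh4, an ether-a-go-go-like channel, lay at 1.08, 1.08 and 0.730 TPM in tTA- mice and at 0.452, 0.420, 0.402, 0.578 and 0.366 TPM in tTA+ mice. These rested on 17 to 45 counts a library, and the log2 fold change was -1.02 ± 0.283 (SE; edgeR adjusted p = 0.352). In experiment 1 it ranged from 0.385 to 1.65 TPM. Kcnk10 and Kcnn2 had log2 fold changes of -0.30 ± 0.120 and -0.22 ± 0.0909 (SE; edgeR adjusted p = 0.750 and 0.801), and in both genes the groups overlapped.

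High values in tTA+ mice were found for channels of several kinds. Kcnk1 lay at 137, 146 and 139.9 TPM in tTA- mice and at 157, 167, 191, 155 and 171 TPM in tTA+ mice. The groups did not overlap, and the log2 fold change was 0.28 ± 0.0835 (SE; edgeR adjusted p = 0.428). Of its exon bases, 8.01% lie opposite another gene, and reads of the 2 strands cannot be told apart without a stranded count.

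Kcnt1, a sodium-activated channel, lay at 8.69, 10.9 and 7.09 TPM in tTA- mice and at 12.1, 11.5, 9.54, 9.26 and 9.57 TPM in tTA+ mice, with a log2 fold change of 0.38 ± 0.112 (SE; edgeR adjusted p = 0.425). Kcnh8, an ether-a-go-go-like channel, lay at 1.38, 1.87 and 1.09 TPM in tTA- mice and at 2.54, 2.43, 2.05, 1.09 and 2.06 TPM in tTA+ mice, with a log2 fold change of 0.68 ± 0.206 (SE; edgeR adjusted p = 0.449). Both overlapped between groups. Kcnh5 and the G protein-gated subunit Kcnj5 had log2 fold changes of 0.36 ± 0.137 and 0.80 ± 0.316 (SE; edgeR adjusted p = 0.714 and 0.740), also with overlap.

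Groups did not overlap for 8 of the 84 genes, 9.52%, against 5.80% of all genes. Kcnf1, Kcnk1 and Kcnk2 were the 3 higher genes (2.53% of all genes), and Kcna5, Kcng1, Kcnh4, Kcnip4 and Kcns2 the 5 lower (3.27% of all genes). Among roles, 11 of 15 voltage-gated pore subunits of the Kcna to Kcnd subfamilies were negative with a median of -0.06, beside 46.8% of all genes negative. Without homecage replicate 2 it was 8 of 15 with a median of -0.02, and the median was -0.17 without SOR replicate 1 or without the choroid plexus-rich libraries. In the last fits named, the SOR mice left were all tTA+, and tTA was estimated within the homecage mice alone. Among inward rectifiers, 7 of 12 were positive with a median of 0.10.

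Markers of dentate granule cells moved with tTA. Of the 10 markers, 9 had negative log2 fold changes and 4 were called lower by edgeR (C1ql2, Dsp, Pla2g2f and Doc2b), while Tdo2 was called higher. Their summed level was 271 to 448 TPM in tTA+ mice and 563 to 738 TPM in tTA- mice, without overlap, and no marker was at 0 in every library. In experiment 1 the sum was 402 to 523 TPM. Among other lists, 8 of 8 oligodendrocyte markers were positive (median 0.20, 2 at an unadjusted p under 0.05), as were 6 of 6 microglia markers (median 0.08, 0 at that p) and 7 of 8 interneuron markers (median 0.20, 2 at that p). Of 6 CA1 markers, 4 were negative, 3 of them at that p (median -0.19). The part of these markers in the Kcng1 result and in the other tTA values was not tested.

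Auxiliary proteins, scaffolds and the related HCN channels that accompany potassium channels were read from a list of 21 genes, 19 of them tested. None was called by edgeR in any of the 3 comparisons. Unadjusted p under 0.05 was reached by 0 in DN, 0 in SOR and 1 of 19 in tTA mice, against 3.83%, 7.60% and 5.71% of all genes. That gene, Akap5, anchors kinases and phosphatases to channels, and its mean was 57.9 ± 8.503 TPM (SD, n = 5) in tTA+ and 76.0 ± 14.9 TPM (SD, n = 3) in tTA- mice. The tTA log2 fold change was -0.27 ± 0.0846 (SE; edgeR adjusted p = 0.483).

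Medians over the partner list were 0.00 in DN, -0.07 in SOR and 0.02 in tTA mice, with 9, 13 and 8 of 19 genes negative. A set of 25 potassium channel genes with textbook roles in hippocampus had log2 fold changes between -0.14 (Kcnj11) and 0.11 (Kcnt1) in DN mice, 17 of them negative. The same genes lay between -0.36 (Kcna4) and 0.27 (Kcnk1) after SOR, 17 of them negative. They lay between -0.45 (Kcnip4) and 0.38 (Kcnt1) in tTA+ mice, 15 of them negative. An unadjusted p under 0.05 was reached by 1 of the 25 in DN, 2 in SOR and 4 in tTA mice, against 3.83%, 7.60% and 5.71% of all genes, of which 49.98%, 48.5% and 46.8% were negative.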

How the data were processed

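RNA was measured in 19 mouse dorsal hippocampus libraries made, per the labels' protocols, by TruSeq preparation after depletion with Ribo-Zero Gold. The authors deposited 1 table of whole-number counts per gene; the submitters' processing notes name STAR, SAMtools 1.6, featureCounts 1.4.4 and mm10. The annotation release and the use of strand are not given in the sources used here, so the 24 potassium channel genes that share exon bases with another gene are less certain. Identifiers were matched to GENCODE M21 on GRCm38 (51596 of 51789). TPM was computed from the deposited counts and summed exon length.

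Each experiment was fitted alone with edgeR 4.0.16 (quasi-likelihood F test, robust, two-sided, TMM, filterByExpr; R 4.3.3), with Benjamini-Hochberg adjustment over every gene in the fit and a threshold of 0.05 for a call. Standard errors were taken as |log2 fold change|/√F. A simulated check with 200 genes changed 2-fold recovered 200 in the DN design (22387 genes, 5 false calls), 186 in the SOR design (22332 genes, 11 false calls) and 190 in the tTA design (22803 genes, 14 false calls). The changed genes were drawn above a floor of mean counts, and all genes of a design had the same dispersion. Recovery of smaller changes or of genes with low counts was not measured. Overlap between groups was read from log2 CPM with a prior count of 2. The low-count filter used the 2 groups compared, which was settled after a first output.

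The members and lists were chosen with earlier results of these data known. The rule for named genes took called genes, up to 5 higher and 5 lower per comparison by unadjusted p under 0.05, the highest gene of each subfamily, the 15 highest genes, 25 genes with textbook roles, and Kcne2. Kcna5, Kcnc4, Kcnd1, Kcnh1, Kcnh3, Kcnip1, Kcnk12 and Kcnk16 were named after their values were seen. Some genes that the rule takes are counted in the totals but not reported here by name or drawn in figures.

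The alternatives were a threshold of 0.1, other scalings and filters, DESeq2 1.42.0, limma-voom (limma 3.58.1), all libraries in 1 fit, the replicate block, tTA as a covariate or tTA+ mice alone, each library left out, and, added after the data were seen, the choroid plexus-rich libraries left out. Replicates differed by 4.63 to 73.4 in chi-square per degree of freedom, so none was a repeat of another. Each library is taken as 1 mouse, since the labels name no pools; litters are not given, and p-values measure the spread between these libraries. Reads carry no molecular identifiers, so count ranges show counting depth only.

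Beside choroid plexus and dentate granule cells, lists of CA1, CA3, cortex, interneuron, astrocyte, oligodendrocyte, microglia, vascular and blood markers were read. None of their genes was called by edgeR in DN or SOR mice, and 1, the cortex marker Tbr1, was called higher in tTA+ mice.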

Additional observations from a re-analysis of the deposited data

Results flagged for a closer look

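Single libraries that stood apart from the rest of a group of 4 to 10 were sought among the genes named for a comparison and, in homecage mice, for their level; 4 of 60 groups held one, and chance alone marks about 1 in 20. These were read in TPM alone. In SOR mice, Kcnk6 was at 4.47 TPM in replicate 2 against 3.35 to 3.53 TPM in the other 3. On scaled CPM it was 4.79 in replicate 2, below 5.12 in replicate 3. Kcne4 was at 0.726 TPM in SOR replicate 4 against 0.808 to 0.818 TPM. On scaled CPM it was 0.598 there, inside the 0.561 to 0.751 of the other SOR mice. Among tTA+ mice of experiment 2, Kcnip4 was at 26.3 TPM in SOR replicate 3, the shallowest library, against 42.8 to 48.0 TPM. In homecage mice, Kcnmb4 was at 6.89 TPM in replicate 1 against 8.88 to 9.27 TPM.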

How the results depend on the processing

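No potassium channel gene was called in DN or SOR mice under any alternative run. In tTA mice, where 1 gene was called, the count was 2 with no filter on low counts (Kcng1 and Kcnip4), 3 with all 19 libraries in 1 fit (Kcng1, Kcnh8 and Kcnip4), 0 with the replicate block and 0 without the choroid plexus-rich libraries; leaving out 1 library gave 0 to 4, the 4 (Kcng1, Kcnh4, Kcnip4 and Kcnj9) without SOR replicate 3. Over all genes, the 82 calls in tTA mice became 0 with the block and 10 to 290 with 1 library left out, and the 20 calls in SOR mice became 0 in tTA+ mice alone, 1 to 50 with 1 library left out, 118 with DESeq2 and 145 with all 19 libraries in 1 fit; the last 2 gave 250 and 383 in tTA mice. With the block, tTA differs only between the 2 mice numbered 2, so tTA is estimated from that pair after the exposure difference of the other 3 pairs is taken off, and the block fit says little on the tTA values; it had 0 potassium channel genes at an unadjusted p under 0.05. Kcng1 kept a negative log2 fold change in every fit, from -1.12 without the choroid plexus-rich libraries (edgeR adjusted p = 0.208) to -0.73 with the replicate block (edgeR adjusted p = 1). Values that turned sign were those of Kcnt1 (-0.019) and Kcnh5 (-0.038) in tTA mice with the replicate block, and of Kcne2 in SOR mice (-1.23) without the choroid plexus-rich libraries, whose part was not tested. Without those libraries, the SOR mice left in experiment 2 were all tTA+. The SOR comparison then also differed in tTA, and tTA was estimated within the homecage mice alone. Of 361 alternative values of log2 fold changes, 345 kept direction and side of the threshold. The number of genes above 1 TPM in homecage mice, 74, ranged from 64 to 76. Same-numbered mice did not deviate together throughout (correlations from -0.05 to 0.19 in experiment 1 and from 0.05 to 0.39 in experiment 2), and not every mouse correlated best with its own number, so the numbers were not taken as pairs. Depth limits genes such as Kcne4 and Kcnh4, with under 60 counts a library.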
